A study of Homo sapiens with 9 samples.

Results

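The genes described here encode the machinery of oxidative phosphorylation. They were the protein-coding genes of the mitochondrial chromosome together with the nuclear genes whose symbols begin with NDUFA, NDUFB, NDUFC, NDUFS, NDUFV, UQCR, COX4, COX5, COX6, COX7, COX8 or ATP5, and SDHA to SDHD. This rule found 112 genes of the 58735 in the count table, of which 19951 were protein coding. The mitochondrial chromosome held 13 of them and the nucleus 99. By role the nuclear genes were 37 subunits of complex I, 4 of complex II, 9 of complex III, 19 of complex IV and 18 of ATP synthase, 8 complex I assembly factors (the NDUFAF genes), the ATP synthase inhibitor ATP5IF1, the coupling factor gene ATP5S and 2 readthrough genes. RNA sequencing was carried out on VCaP, an androgen-sensitive human prostate cancer cell line that carries a TMPRSS2-ERG fusion, grown with 2 nM of the androgen DHT. The cells had a wild-type genotype per the labels and had received a control siRNA (siCtrl) or 1 of 2 siRNAs directed against CDO1 (siCDO1A and siCDO1C), with 3 biological replicates per group numbered by batch. CDO1 is cysteine dioxygenase, which oxidises cysteine to cysteine sulfinate. The comparisons asked how silencing of CDO1 altered the transcriptome, here for the respiratory chain. One cell line was used and each siRNA was compared with the same 3 siCtrl libraries.

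Complexes I and II pass electrons from NADH and succinate to ubiquinone, complex III passes them on to cytochrome c, and complex IV passes them to oxygen. Complexes I, III and IV pump protons across the inner mitochondrial membrane, and ATP synthase uses the returning protons to make ATP. Complex II is encoded by the nucleus alone, whereas the other complexes combine subunits from both genomes, so that their assembly needs products of mitochondrial and of cytosolic translation. Mitochondrial genes are transcribed as long polycistronic precursors by a dedicated RNA polymerase, and nuclear genes one by one by RNA polymerase II.

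Library totals ranged from 12061295 to 16073698 counts, so that 3 counts in a library corresponded to 0.187 to 0.249 CPM, the scale on which each library's counts are set to a common total. CDO1 itself stood at 13.98 ± 0.277 CPM with siCtrl, 2.51 ± 0.675 CPM with siCDO1A and 1.69 ± 0.976 CPM with siCDO1C (mean ± SD, n = 3). Neither siRNA group overlapped siCtrl, and the exact two-sided permutation test gave p = 0.1 for each siRNA, the smallest value that 3 against 3 libraries allow. The 10 markers of prostate identity, among them KLK2 and ERG, were detected in all 9 libraries. Of 12 markers of other cell types, PTPRC, CD3E, CD68, COL3A1, DCN and INS had at most 3 counts in any library, while LUM was at 11.2 to 18.6 CPM and ALB at 154 to 248 CPM. The summed level of the 12 was 257 to 269 CPM in siCtrl, 183 to 197 CPM with siCDO1A and 170 to 189 CPM with siCDO1C, most of it ALB, and that of the 10 prostate markers, most of it KLK2, 5337 to 5500.5 CPM, 6131 to 6472 CPM and 5463 to 5673 CPM. Of these 10, 3 rose and 3 fell with siCDO1A, and 1 rose and 2 fell with siCDO1C. Their part in the results that follow was not tested. The libraries also differed by gene length. Relative to the siCtrl mean, genes of up to 2000 bases stood above genes of over 8000 bases by 0.17, 0.15 and -0.0032 log2 units in siCDO1A replicates 1, 2 and 3, and by -0.025, 0.27 and -0.090 in siCDO1C replicates 1, 2 and 3. The siCDO1C replicate 2 library thus stood apart from the other libraries of its group. The median and the count of nuclear genes with siCDO1C are given with and without it. Other siCDO1C values, among them fold changes of single genes, include it unless stated.

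Of the 112 genes, 102 had enough counts to be tested, namely all 13 mitochondrial and 89 nuclear genes. Among the 10 that were not tested, 6 were subunit isoforms of complex IV known from other tissues. COX4I2, COX6A2 and COX7B2 had 0 counts in all 9 libraries, which allows a level of up to 0.249 CPM in the shallowest. COX8C reached 1 count in 1 library, COX7A1 had 0 to 3 counts and COX6B2, a testis isoform, had 2 to 13. Their counterparts were expressed, with COX4I1 at 98.6 CPM, COX6A1 at 73.8 CPM, COX6B1 at 84.7 CPM, COX7A2 at 83.1 CPM, COX7B at 60.3 CPM and COX8A at 419 CPM as means over the 9 libraries. For each of these subunits the widely expressed form thus had the higher level. The other untested genes were NDUFA7 (1 to 5 counts), ATP5MGL, a near copy of the ATP synthase gene ATP5MG (0 to 1 count), and the readthrough genes ATP5MF-PTCD1 and NDUFC2-KCTD14 (0 to 1 count).

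Levels were compared between genes as mean CPM per kb of annotated gene length. That length can exceed the length of the transcript present, which would lower the level per kb. Its part in the differences between genes and genomes was not tested. The 13 mitochondrial genes had a median level of 2002 CPM per kb and the 89 tested nuclear genes a median of 21.8 CPM per kb. Within complex IV, the mitochondrial MT-CO2 (5479 CPM per kb) and MT-CO1 (5429), which carry the copper and haem centres of the enzyme, stood above the nuclear COX8A (826), the highest nuclear gene of all. The highest nuclear level per kb was NDUFB7 in complex I (121 CPM per kb), SDHB in complex II (25.6), UQCRH, the hinge protein, in complex III (125) and ATP5F1B, the catalytic beta subunit, in ATP synthase (648). Without division by length, SDHA stood above SDHB, at 142.6 against 62.9 CPM. The median nuclear level was 19.4 CPM per kb in complex I, 19.4 in complex II, 38.5 in complex III, 38.8 in complex IV and 41.6 in ATP synthase. The assembly factors had a median of 7.82 CPM per kb. Subunits of 1 complex therefore differed widely in transcript level.

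**Figure D1:**
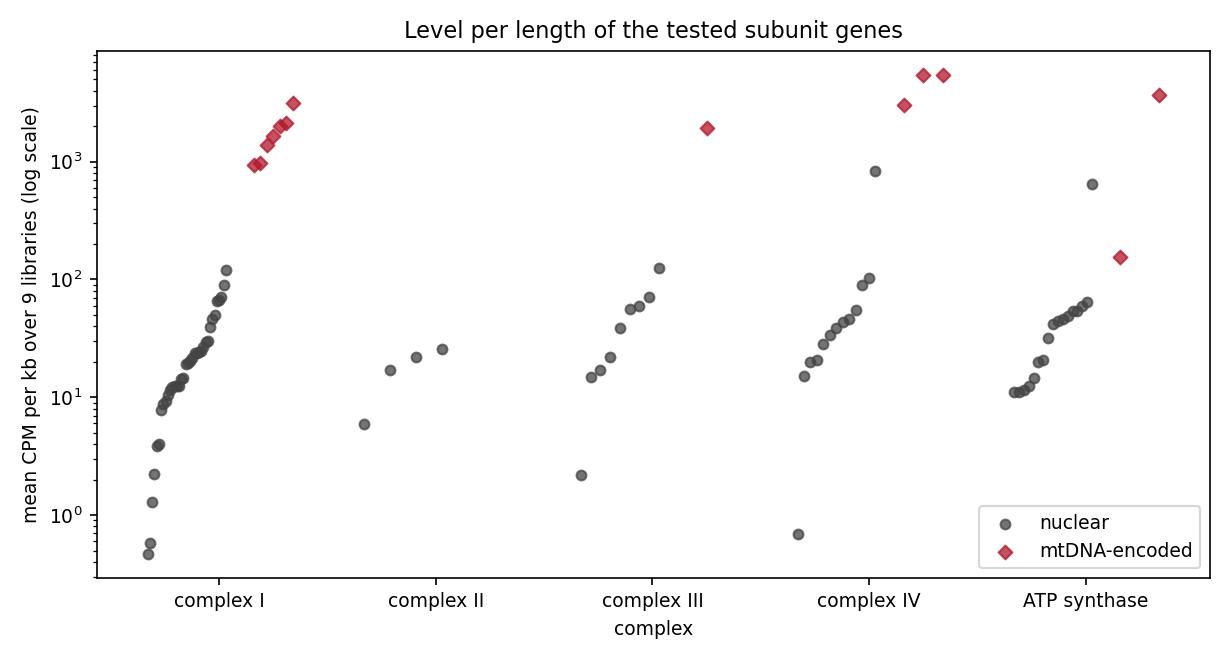
Mean level over 9 libraries of each tested subunit gene in CPM per kb (vertical, log scale) by complex (horizontal), with nuclear genes as grey circles and mitochondrial genes as red diamonds, each set sorted from low to high. The mitochondrial genes lie above the nuclear genes of their complex except for MT-ATP8, at 155 CPM per kb, which lies below ATP5F1B at 648.

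Some of these genes share bases in the annotation. MT-ATP8 and MT-ATP6, the neighbouring ATP synthase genes of the mitochondrial chromosome, overlap by 46 bases and are read from the same transcript, yet MT-ATP8 was counted at 32.1 CPM and MT-ATP6 at 2511 CPM. Reads that cover the shared bases belong to both annotations, and MT-ATP8 has a length of 207 bases against 681 for MT-ATP6. The part of the overlap or of the length in the count of MT-ATP8 was not tested. The shared stretch is printed because it shows how the end of one frame lies within the start of the other. It lies at chrMT:8527-8572 on the plus strand (GENCODE transcripts, mitochondrial reference sequence), and the capitals mark the start codon of MT-ATP6 and the stop codon of MT-ATP8.
MT-ATP8 and MT-ATP6: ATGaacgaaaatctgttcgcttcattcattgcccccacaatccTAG
In the nucleus, 21 genes of the set overlapped another protein-coding gene on the same strand, the 2 readthrough genes among them, and 78 did not. Under 10 CPM were 9 of the 21 and 9 of the 78. High genes also had such an overlap, among them COX8A at 419 CPM and ATP5MF at 102 CPM. NDUFA13, an accessory subunit of complex I, was at 1.58 CPM, NDUFA11 at 6.21 CPM and NDUFB8 at 7.96 CPM with such an overlap. NDUFV2, a core subunit, was at 1.27 CPM and overlapped AP005263.1 on the same strand, a gene that is not protein coding. NDUFA13, NDUFA11, NDUFB8 and NDUFV2 were chosen after their values were seen. How counting treated shared bases, or reads of the near-identical pair UQCRH and UQCRHL, was not tested, and these levels are uncertain.

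With siCDO1A the nuclear genes of the respiratory chain were mostly higher than with siCtrl. Of the 89 tested, 21 rose and 0 fell at an adjusted p of at most 0.05 in edgeR's quasi-likelihood test, where 7.37% of all 15555 genes rose and 7.48% fell. DESeq2 gave 18 higher (6.87% of its 12464 genes) and 0 lower, and 37 were at an unadjusted p under 0.05 in edgeR (27.9% of all genes). The rises were small, between 1.12 and 1.39 times the siCtrl level. The median log2 fold change of the 89 genes was 0.14 against 0.010 for all genes, and 76 of the 89 were above 0 (51.9% of all genes). The 3 siCDO1A libraries all lay above the 3 siCtrl libraries for 31 of the 89 (15.2% of all genes) and all below for 1 (15.4%). Within each of the 3 batches, which hold 1 library per group, siCDO1A was higher than siCtrl for 42 of the 89 (20.9% of all genes). Since counts are a share of each library, a rise here is a rise in share, and the amount of RNA per cell was not measured.

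The count depended on single libraries. It was 37 without siCDO1A replicate 3 (11.2% of all genes rose), in which the nuclear genes were the least raised, and 23 without siCtrl replicate 3. It was 8, 8, 7 and 7 without siCDO1A replicate 1, siCDO1A replicate 2, siCtrl replicate 1 and siCtrl replicate 2, respectively. Calls over all genes, in both directions, also fell in those last fits, to 1418, 1336, 1348 and 1292 from 2309. Without siCtrl replicate 3 they were 2033. With the batch number as a replicate block 9 rose (4.19% of all genes), and with all 9 libraries in 1 fit 5 rose (4.33%). NDUFV3, NDUFA5 and ATP5F1D passed in each of 17 fits.

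**Figure D2:**
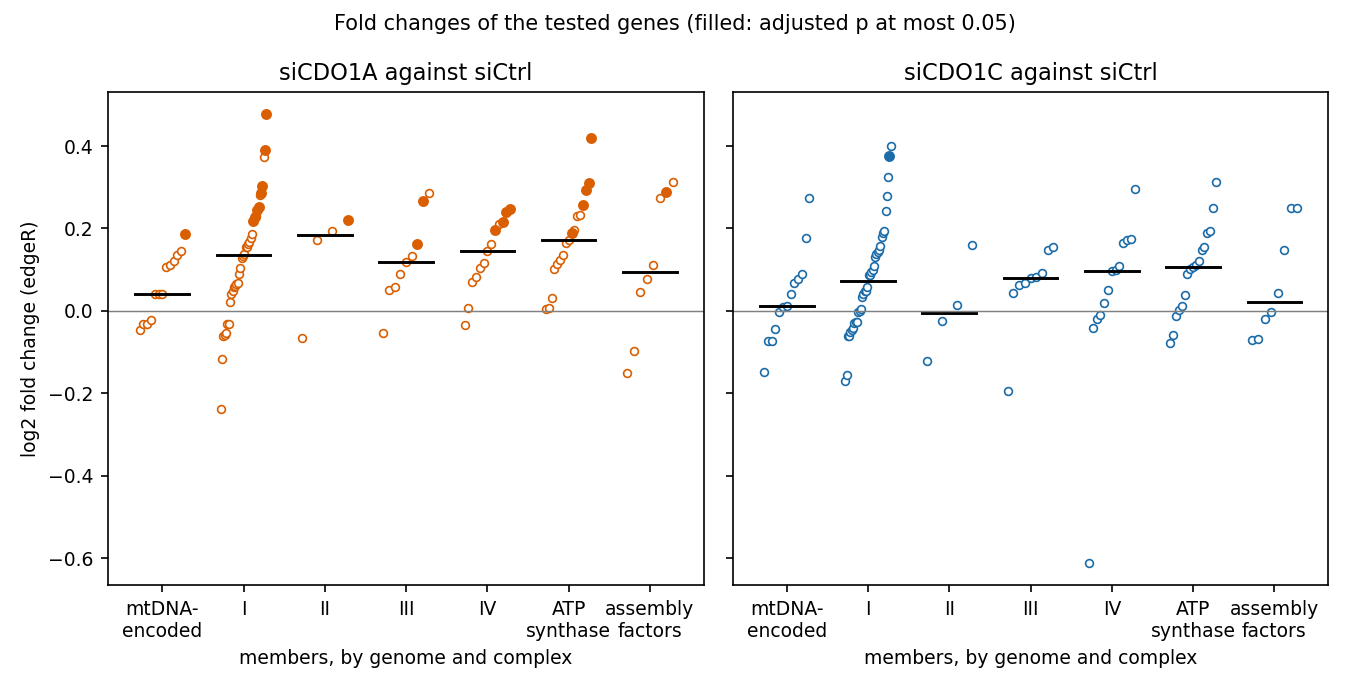
Log2 fold change against siCtrl (vertical) of each tested gene with siCDO1A (left) and siCDO1C (right), for mitochondrial genes and for nuclear genes by complex, sorted within each set, with the median as a black line and filled points at an adjusted p of at most 0.05. The ATP5IF1 and ATP5S genes are left out, and the filled points number 22 with siCDO1A, all above 0, and 1 with siCDO1C.

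Complex I contributed 8 of the 21 nuclear genes that rose, from 36 tested, with a median log2 fold change of 0.14 and 29 above 0. NDUFV3, an accessory subunit of the NADH-oxidising tip (ENSG00000160194, chr21:42879644-42913304, plus strand), was at 65.7, 65.6 and 61.9 CPM in siCtrl replicates 1, 2 and 3, at 88.1, 90.7 and 89.8 CPM with siCDO1A and at 81.3, 94.0 and 76.7 CPM with siCDO1C. Every library of both siRNAs lay above every siCtrl library. On the log2 scale NDUFV3 rose by 0.48 ± 0.064 (SE, adjusted p = 2.86e-05) under siCDO1A and by 0.38 ± 0.086 (adjusted p = 0.0208) under siCDO1C. NDUFV3 was the one nuclear gene of the set that passed with both, although the siCDO1C call was lost when any 1 siCtrl library or siCDO1C replicate 1 was left out.

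NDUFA5, an accessory subunit of the arm that reaches into the matrix, was at 86.3, 89.1 and 78.2 CPM in siCtrl, 108, 111 and 112 CPM with siCDO1A and 95.6, 136 and 104 CPM with siCDO1C. Both siRNA groups lay above siCtrl without overlap, and replicate 2 was far above the other siCDO1C libraries. Relative to siCtrl the log2 fold change was 0.39 ± 0.064 for siCDO1A (adjusted p = 0.000275) and 0.40 ± 0.11 for siCDO1C (adjusted p = 0.0593, or 0.0219 with the replicate block). NDUFV1, which binds FMN and takes electrons from NADH, rose with siCDO1A by 0.29 ± 0.067 log2 units (adjusted p = 0.00632), from 307, 318 and 341 CPM to 402, 432 and 344 CPM. The siCtrl and siCDO1A libraries did not overlap, but siCDO1A replicate 3 was within a few CPM of the highest siCtrl library. NDUFS8, an iron-sulfur subunit close to the ubiquinone site, rose by 0.25 ± 0.058 (adjusted p = 0.0068), and NDUFA10, an accessory subunit, by 0.25 ± 0.061 (adjusted p = 0.00793). For these 3 genes the log2 fold changes with siCDO1C were 0.19 (NDUFV1), 0.19 (NDUFS8) and 0.13 (NDUFA10), with adjusted p of 0.173 to 0.38. The core subunit NDUFS3 and the membrane-arm subunit NDUFB11, which were named after their values were seen, rose with siCDO1A by 0.30 and 0.22 log2 units, and neither passed with the replicate block.

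Other complex I genes did not pass with siCDO1A. NDUFB7, the highest of the complex per kb, had a log2 fold change of 0.16 ± 0.076 (adjusted p = 0.185). NDUFB4, a membrane-arm subunit, was at 68.2, 69.0 and 68.7 CPM in siCtrl, 72.7, 70.6 and 75.9 CPM with siCDO1A and 77.2, 96.6 and 77.4 CPM with siCDO1C. Its 3 groups did not overlap, and siCDO1C replicate 2 was again highest. Its log2 fold changes were 0.091 ± 0.065 for siCDO1A (adjusted p = 0.394) and 0.28 ± 0.091 for siCDO1C (adjusted p = 0.097). Of the 8 assembly factors, NDUFAF8 rose with siCDO1A, by 0.29 log2 units (adjusted p = 0.0385, lost with the replicate block, and named after its values were seen). NDUFAF5, which hydroxylates a core subunit during assembly, was at -0.15 ± 0.13 log2 units for siCDO1A (adjusted p = 0.474), the lowest among tested nuclear genes of at least 10 CPM, and -0.02 ± 0.14 with siCDO1C.

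In complex II, 1 of 4 genes rose with siCDO1A and 3 of 4 were above 0. SDHA, the flavoprotein that oxidises succinate, was at 133, 130.2 and 140.1 CPM in siCtrl, 159, 164 and 148 CPM with siCDO1A and 145, 144 and 120.5 CPM with siCDO1C. All siCDO1A libraries were above all siCtrl libraries, whereas the siCDO1C libraries lay on both sides of them. For SDHA the log2 fold change was 0.22 ± 0.059 for siCDO1A (adjusted p = 0.0149, or 0.0816 with the replicate block) and 0.015 ± 0.082 for siCDO1C (adjusted p = 0.948). SDHB, the iron-sulfur subunit, and SDHD, a membrane anchor, were also higher in every siCDO1A library than in any siCtrl library, at 0.19 (adjusted p = 0.0592) and 0.17 log2 units (adjusted p = 0.121). SDHC, the other anchor, went the other way, at 86.2, 88.5 and 88.9 CPM in siCtrl and 85.5, 82.9 and 83.4 CPM with siCDO1A. It was the 1 nuclear gene for which every siCDO1A library was below every siCtrl library, but its log2 fold change of -0.066 ± 0.061 did not pass (adjusted p = 0.526). Once the length trend was removed, all 4 complex II genes were above 0 with siCDO1A. The highest value of SDHC over the alternatives was 0.015.

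In complex III, 2 of 9 genes rose with siCDO1A and 8 of 9 were above 0. UQCRFS1, the Rieske iron-sulfur protein that takes electrons from ubiquinol, was at 119.6, 120.0 and 123 CPM in siCtrl, 153, 142 and 141 CPM with siCDO1A and 119, 159 and 126 CPM with siCDO1C. The siCDO1A libraries were all above siCtrl, while only replicates 2 and 3 of siCDO1C were. Its log2 fold change with siCDO1A was 0.27 ± 0.058 (adjusted p = 0.00347) and with siCDO1C 0.15 ± 0.093 (adjusted p = 0.431). UQCRC1, a core protein named after its values were seen, rose by 0.16 for siCDO1A (adjusted p = 0.0459, lost with the replicate block). UQCRH had a log2 fold change of 0.13 ± 0.058 (adjusted p = 0.139). UQCR10, a small subunit, had -0.054 ± 0.072 with siCDO1A and -0.19 ± 0.093 for siCDO1C (adjusted p = 0.284), the lowest with siCDO1C among nuclear genes of at least 10 CPM.

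In complex IV, 4 of 13 nuclear genes rose with siCDO1A and 12 of 13 were above 0. COX5A, a subunit on the matrix side, was at 128, 129.8 and 126 CPM in siCtrl, 158.57, 150.005 and 147.52 CPM with siCDO1A and 148, 182 and 144 CPM with siCDO1C. Both siRNA groups were above siCtrl without overlap. On the log2 scale COX5A differed from siCtrl by 0.25 ± 0.057 for siCDO1A (adjusted p = 0.00518) and 0.29 ± 0.086 for siCDO1C (adjusted p = 0.0639, or 0.0147 once the length trend was removed). COX6B1 on the intermembrane side, COX7B and COX8A rose with siCDO1A by 0.22 ± 0.062, 0.24 ± 0.075 and 0.20 ± 0.065 log2 units (adjusted p = 0.0228, 0.0352 and 0.0459), and all 3 calls were lost with the replicate block. COX4I1, the largest nuclear subunit, did not pass at 0.16 ± 0.069 (adjusted p = 0.121), nor did COX6A1 at 0.15 ± 0.079 or COX7A2 at 0.083 ± 0.07. COX7A2L, which takes part in joining complexes III and IV, was at 0.0076 ± 0.062. NDUFA4, long assigned to complex I and found in complex IV, was at -0.035 ± 0.065 with siCDO1A and 0.02 ± 0.079 with siCDO1C. Its paralog NDUFA4L2, known for induction under hypoxia, had 1.22 to 2.63 CPM over the 9 libraries and stood at 0.10 ± 0.28 log2 units for siCDO1A (adjusted p = 0.848) and -0.61 ± 0.33 for siCDO1C (adjusted p = 0.357). The intervals of this gene were too wide at 15 to 40 counts per library to place it.

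In ATP synthase 5 of 17 nuclear genes rose with siCDO1A, with a median log2 fold change of 0.17. All 17 were above 0, ATP5F1E and ATP5MG by under 0.01, and 14 of 17 once the length trend was removed. ATP5F1D, the delta subunit of the rotating central stalk, was at 105, 112 and 121 CPM in siCtrl, 158, 162 and 133 CPM with siCDO1A and 127, 168 and 128 CPM with siCDO1C. Every siRNA library was above every siCtrl library, with siCDO1A replicate 3 the lowest of its group and siCDO1C replicate 2 the highest of all. Its log2 fold change was 0.42 ± 0.073 for siCDO1A (adjusted p = 0.000499) and 0.31 ± 0.10 for siCDO1C (adjusted p = 0.0932). ATP5F1B, the most abundant nuclear transcript of the set in CPM, was at 1382, 1372 and 1432 CPM in siCtrl, 1637, 1567 and 1569.7 CPM with siCDO1A and 1475, 1624 and 1478 CPM with siCDO1C. The 3 groups stood in a narrow range, and both siRNA groups were above siCtrl. Against siCtrl its log2 fold change was 0.19 ± 0.046 for siCDO1A (adjusted p = 0.00787, or 0.0578 with the replicate block) and 0.12 ± 0.069 for siCDO1C (adjusted p = 0.377). ATP5PD of the peripheral stalk rose by 0.31 ± 0.08 (adjusted p = 0.0111, or 0.0501 with the block), and ATP5MPL, a small subunit named after its values were seen, by 0.26 (adjusted p = 0.0199, lost with the block).

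The proton-carrying c subunit is encoded by ATP5MC1, ATP5MC2 and ATP5MC3, which make the same mature protein. ATP5MC1 rose with siCDO1A by 0.29 ± 0.076 (adjusted p = 0.0119), from 71.5, 72.1 and 82.7 CPM to 97.4, 97.3 and 83.1 CPM. ATP5MC2 and ATP5MC3 did not pass, at 0.16 ± 0.059 (adjusted p = 0.0645) and 0.13 ± 0.061 (adjusted p = 0.151), and the difference among the 3 was not tested. With siCDO1C, ATP5MC2 was at 149, 205 and 161 CPM against 176, 181 and 177 CPM in siCtrl. Replicates 1 and 3 were below siCtrl and replicate 2 above, and without replicate 2 the gene passed as lower than siCtrl, as did UQCR10.

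**Figure D3:**
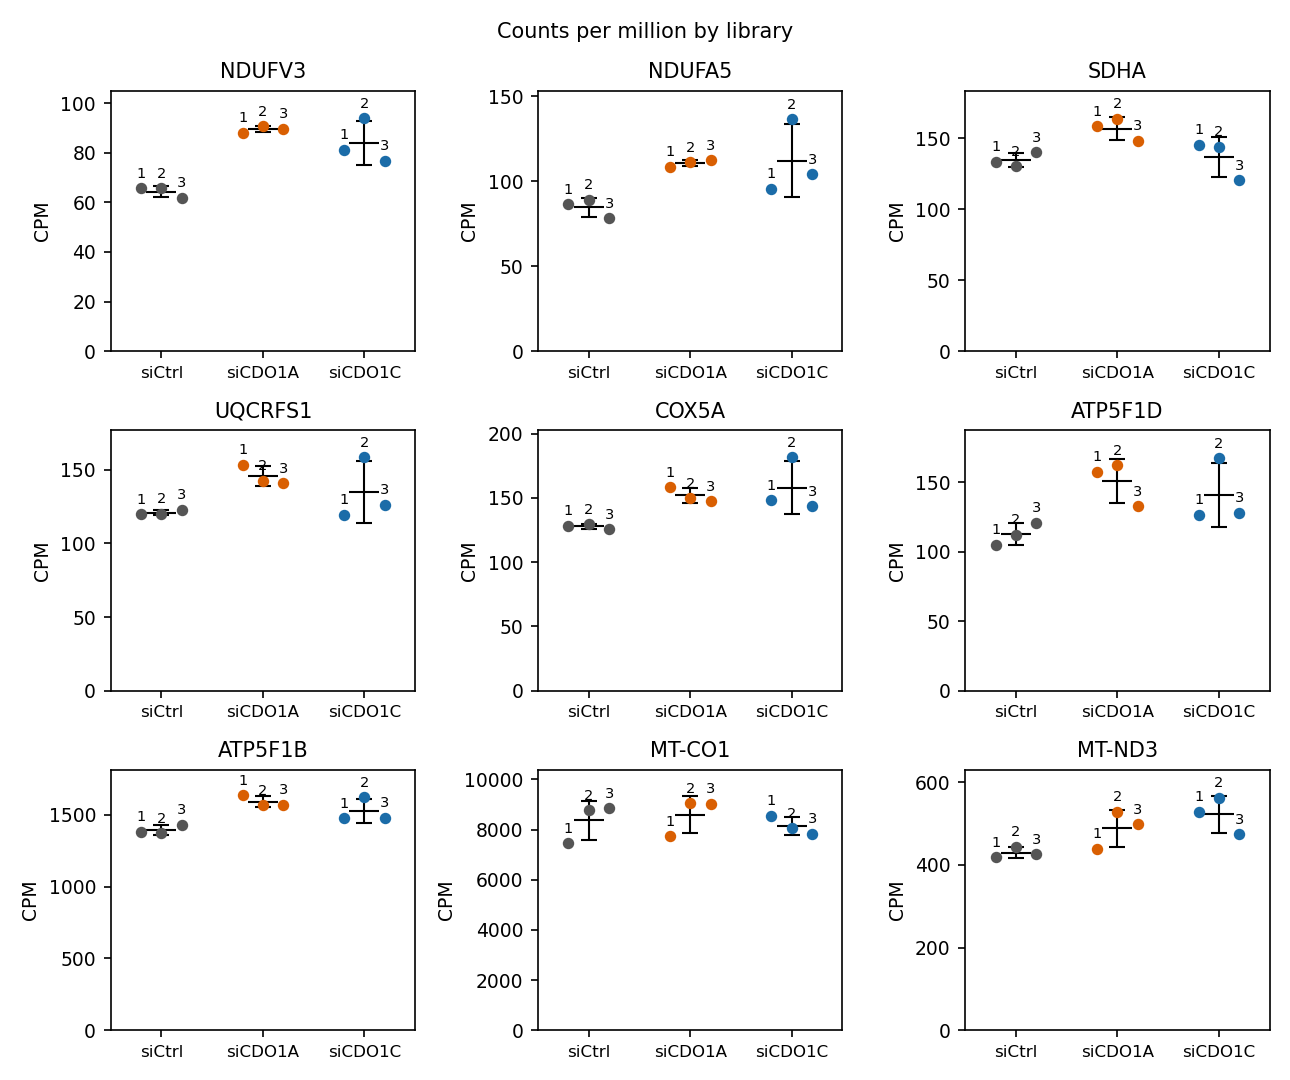
CPM (vertical, from 0) of 9 genes in the 3 libraries of each group (points numbered by replicate), with the mean as a dash and the SD as bars. NDUFV3, NDUFA5, COX5A, ATP5F1D and ATP5F1B had every siRNA library above every siCtrl library, and MT-CO1 showed overlap of all 3 groups.

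With siCDO1C, 1 of the 89 nuclear genes passed, the rise of NDUFV3 described above, and 0 fell, where 2.27% of all genes rose and 2.5% fell. DESeq2 called 3, adding COX5A and NDUFA5 (2.78% of its 13034 genes rose), the replicate block 2 (1.92% of all genes) and 1 fit of all 9 libraries 4 (3.2%). At an unadjusted p under 0.05 there were 7 of the 89 (18.6% of all genes). The median log2 fold change was 0.083, with 63 of 89 above 0 (50.0% of all genes). All siCDO1C libraries were above all siCtrl libraries for 9 of 89 (12.1% of all genes) and all below for 0 (1872 of all 15555 genes), and siCDO1C was the higher in all 3 batches for 14 (18.8%). All 21 nuclear genes that rose with siCDO1A had log2 fold changes above 0 with siCDO1C, with a median of 0.15 against 0.25. Both comparisons share the siCtrl libraries, and siCDO1C replicate 2 was the highest of its group for 20 of the 21. Without it not all 21 stayed above 0. ATP5MC1 was then at -0.00036, COX6B1 at -0.014, and 0 of the 4 complex II genes, SDHA among them, were above 0.

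The siCDO1C group was divided. Replicate 2 was the highest of the 3 siCDO1C libraries for 81 of the 89 nuclear genes (91.0%), against 41.0% of all genes. The median deviation of the 89 genes from the siCtrl mean was 0.00005, 0.25 and -0.025 log2 units in siCDO1C replicates 1, 2 and 3, and 0.15, 0.18 and 0.087 in the siCDO1A replicates. Replicate 2 was thus above every siCDO1A library, and the other siCDO1C libraries were at the siCtrl level. Without replicate 2 the median log2 fold change was -0.019. Then 5 nuclear genes passed, of which COX5A, NDUFA5 and NDUFV3 were higher and ATP5MC2 and UQCR10 lower. In that fit 6.78% of all genes rose and 1014 of all 15555 fell. Replicate 2 was also the library with the strongest length trend, and its part in these values was not tested. Within groups, the median SD of log2 CPM of the nuclear genes was 0.077 for siCtrl, 0.085 for siCDO1A and 0.18 for siCDO1C.

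Set against each other, the siRNAs gave 0 nuclear genes in edgeR at an adjusted p of at most 0.05, where 0.444% of all genes passed, and 0 in DESeq2 (0.916% of its 11348 genes). At an unadjusted p under 0.05 there were 3 (7.65% of all genes), namely SDHA, SDHB and NDUFA4L2, all lower with siCDO1C. The median log2 difference, siCDO1C minus siCDO1A, was -0.061 and 19 of 89 were above 0 (48.4% of all genes). For SDHA the difference was -0.20 with an interval of -0.39 to -0.017 (95%), and for SDHB -0.22 with -0.40 to -0.029. For genes that were high with both, the interval was -0.28 to 0.091 for NDUFV3, -0.34 to 0.12 for ATP5F1D and -0.14 to 0.24 for COX5A, so that differences in either direction were possible. Among genes of at least 10 CPM the difference ran from -0.22 ± 0.10 in ATP5MC2 to 0.19 ± 0.10 in NDUFB4 (adjusted p = 0.661 and 0.685). Without siCDO1C replicate 2, 2 genes were lower with siCDO1C, ATP5MC2 and the small ATP synthase subunit gene ATP5MD, where 2.87% of all genes passed. Of the 21 genes that rose with siCDO1A, 1 thus passed with siCDO1C and none was shown to differ between the siRNAs.

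Of the 13 mitochondrial genes, 1 rose and 0 fell with siCDO1A, a share near that of all genes (7.37%). The median log2 fold change was 0.042, and it ran from -0.037 without siCtrl replicate 1 to 0.11 without siCDO1A replicate 1. None of the 13 had all siCDO1A libraries above (15.2% of all genes) or below (15.4%) all siCtrl libraries. With siCDO1C, 0 of 13 passed in edgeR (1 at an unadjusted p under 0.05, and 1 in DESeq2) and the median was 0.011, with -0.074 without siCtrl replicate 1 and 0.075 without siCtrl replicate 2. The 3 siCtrl libraries themselves spread more in these genes, with a median SD of log2 CPM of 0.17 against 0.077 for the nuclear genes, and replicate 1 was the lowest siCtrl library for all 13. MT-CO1, the catalytic subunit of complex IV, was at 7452, 8777 and 8864 CPM in siCtrl, 7730.0, 9047 and 9029.5 CPM with siCDO1A and 8560.4, 8046 and 7835 CPM with siCDO1C. The 3 groups overlapped, and the log2 fold changes were 0.041 ± 0.065 and -0.045 ± 0.079 (95% intervals -0.10 to 0.18 and -0.21 to 0.12).

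MT-ND3, a core membrane subunit of complex I, was the gene that passed. It was at 419, 444 and 426 CPM in siCtrl, 439, 528 and 498 CPM with siCDO1A and 529, 562 and 475 CPM with siCDO1C. Every siCDO1C library was above every siCtrl library, and siCDO1A replicate 1 lay within the siCtrl range. Its fold change on the log2 scale was 0.19 ± 0.059 for siCDO1A (adjusted p = 0.0387, or 0.105 with the replicate block) and 0.27 ± 0.075 for siCDO1C (adjusted p = 0.0505, or 0.0111 once the length trend was removed). Over the alternatives the adjusted p ran from 0.00937 to 0.318 and from 0.00272 to 0.232, respectively, so that the side of the threshold depended on the setting for both. Its neighbours on the same precursor, MT-CO3 and MT-ND4L, had log2 fold changes of 0.041 and -0.022 with siCDO1A and 0.077 and -0.15 with siCDO1C. The other complex I genes MT-ND1, MT-ND2, MT-ND4 and MT-ND6 were between 0.11 and 0.14 with siCDO1A, and MT-ND5 was at -0.045. MT-CYB of complex III was at -0.032, MT-CO2 at 0.042, MT-ATP6 at 0.11 and MT-ATP8 at -0.033, and none of these passed. With siCDO1C the 9 genes other than MT-CO1, MT-CO3, MT-ND3 and MT-ND4L ran from -0.073 in MT-ND5 and -0.073 in MT-ATP8 to 0.18 ± 0.093 in MT-ATP6 (adjusted p = 0.332).

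As a share of all counts, the 13 mitochondrial genes took 2.68%, 3.23% and 3.18% in siCtrl, 2.84%, 3.21% and 3.33% with siCDO1A and 3.25%, 2.99% and 3.00% with siCDO1C. These shares overlapped in all groups. The 99 nuclear genes took 0.817%, 0.818% and 0.848% in siCtrl, 0.937%, 0.928% and 0.877% with siCDO1A and 0.847%, 0.977% and 0.834% with siCDO1C. Here the siCDO1A libraries were all above the siCtrl libraries, and of the siCDO1C libraries replicate 2 alone was. The ratio of mitochondrial to nuclear counts, which does not depend on library scaling, was 3.66 ± 0.344 in siCtrl, 3.43 ± 0.382 with siCDO1A and 3.50 ± 0.398 with siCDO1C (mean ± SD, n = 3). On the log2 scale the ratio fell by 0.096 with siCDO1A relative to siCtrl (0.011 to 0.17 when 1 library was left out), which was less than the SD of siCtrl, 0.14. The libraries were made from poly(A)-selected RNA, and the yield of mitochondrial mRNA, whose tails are short, cannot be told apart from its level.

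**Figure D4:**
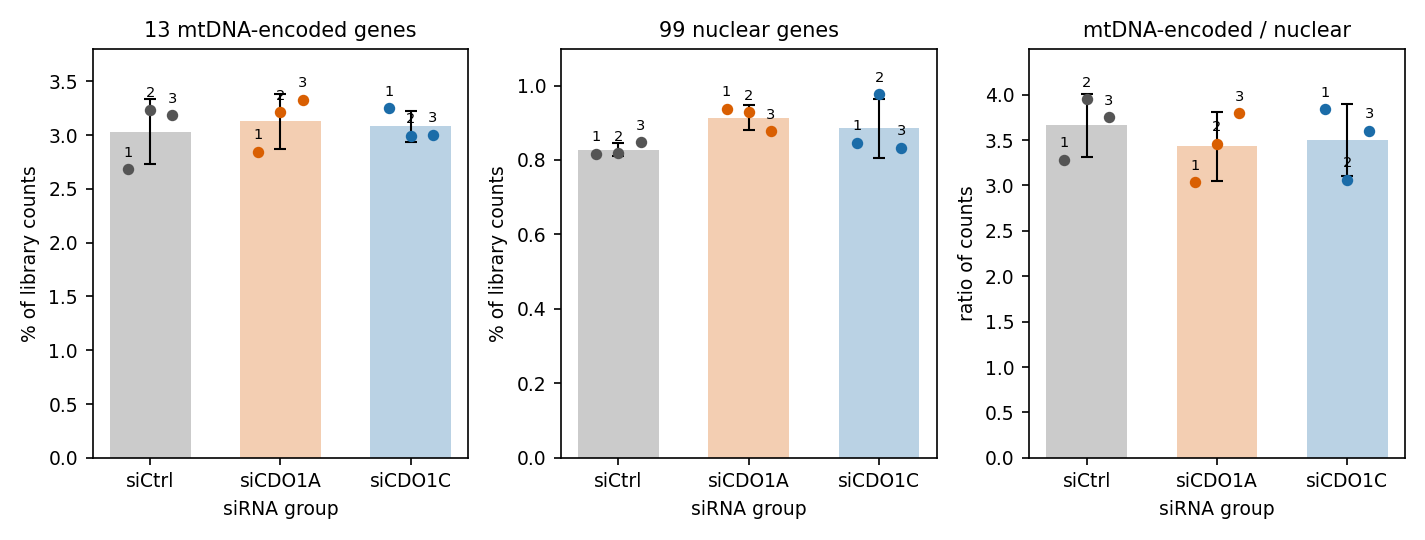
Share of library counts in percent taken by the 13 mitochondrial genes (left) and the 99 nuclear genes (middle), and the ratio of the first to the second (right), per group as mean (bar from 0), SD (error bar) and single libraries (points numbered by replicate). The nuclear share was 0.877% to 0.937% with siCDO1A and 0.817% to 0.848% in siCtrl, while the mitochondrial shares and the ratios overlapped.

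Nuclear respiratory genes are short, with a median length of 2540 bases for the tested ones against 4659 for all tested genes, so the length trend of the libraries was followed. With siCDO1A the median log2 fold change of all genes fell from 0.087 in genes of up to 1000 bases to -0.043 in genes of over 8000 bases. The nuclear genes of the set were above it in each of the 5 length classes, with medians of 0.18, 0.091, 0.17, 0.13 and 0.11 from the shortest to the longest (9, 23, 33, 15 and 9 genes). The class of 2000 to 4000 bases held 10 of the 21 that rose. Once the length trend was removed 17 rose and 0 fell, where 8.52% of all genes rose, and the median was 0.11. Of the 21 genes, 16 were among these 17. With both the length trend removed and the replicate block 10 rose (5.75% of all genes), all of them among the 21. COX8A, of 507 bases, was lost without the length trend (adjusted p = 0.193), and SDHA, at 8383 bases, went from an adjusted p of 0.0149 to 0.00382. With siCDO1C the class medians of the nuclear genes were 0.033, 0.058, 0.10, 0.092 and 0.040, and 4 genes rose once the trend was removed (3.95% of all genes), namely NDUFV3, ATP5F1D, COX5A and NDUFB4.

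**Figure D5:**
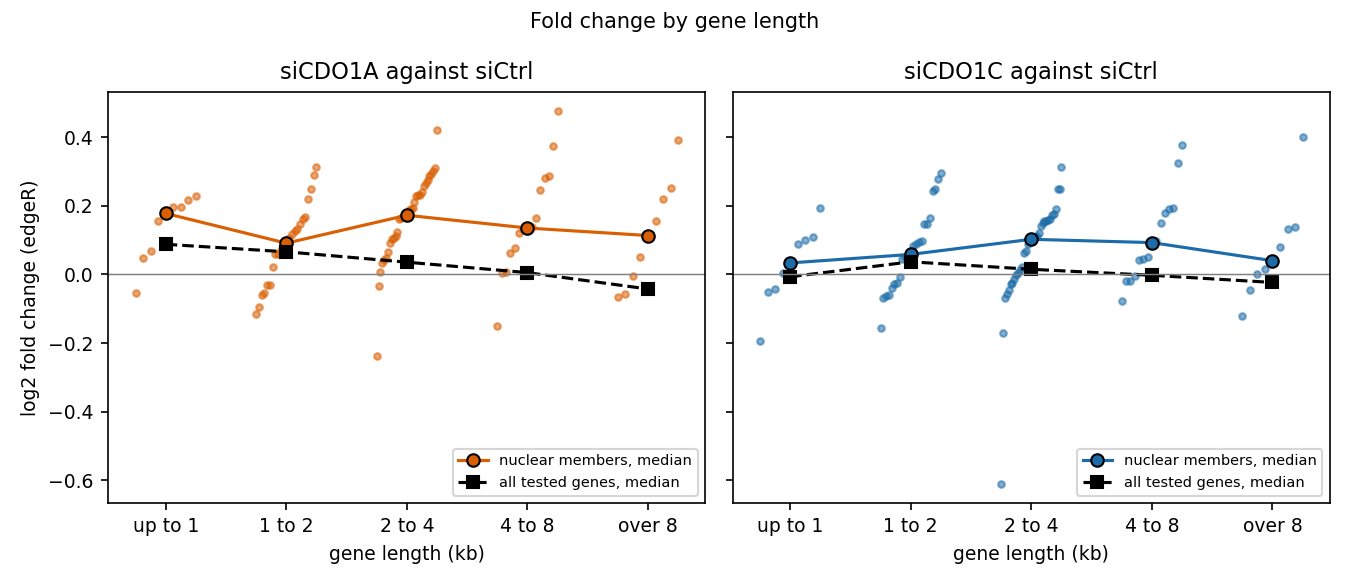
Log2 fold change against siCtrl (vertical) by class of gene length in kb (horizontal) with siCDO1A (left) and siCDO1C (right), as points for the 89 nuclear genes of the set sorted within each class, circles for their median and squares for the median of all tested genes. With siCDO1A the squares descend from 0.087 to -0.043 while the circles stay between 0.091 and 0.18.

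Promoters of nuclear respiratory genes are known to carry sites for the factors NRF1 and YY1 and for ETS factors, and CCAAT boxes for NF-Y. RefSeq promoter windows of 300 bases (GRCh38.p14, 250 before to 50 after the start) were available for 76 nuclear genes, 70 of them tested and 17 of those raised by siCDO1A, and were searched on both strands. The NRF1 word CGCATGCG stood in 11 of the 70 (15.7%) and in 2.19% of 27305 windows of all genes, the ETS word CCGGAAG in 20 (28.6%) and 10.7%, and the YY1 word AAGATGG in 15 (21.4%) and 6.06%. Among the 17 raised genes they stood in 0, 4 and 1, respectively. CCAAT, of only 5 letters, stood in 24 of the 70 (34.3%), in 35.7% of all windows and in 9 of the 17 raised genes (52.9%). None of these words contains another, and a match describes the letters and shows no binding. Windows of raised genes from complexes I, IV and ATP synthase are printed to show the number and place of matches to CCAAT. Capitals mark CCAAT or its reverse ATTGG and, in ATP5PD, the ETS word in reverse (CTTCCGG). They lie at chr21:42893059-42893358 on the plus strand (NDUFV3), chr11:68030431-68030730 on the plus strand (NDUFS8), chr17:48892537-48892836 on the plus strand (ATP5MC1), chr17:75046920-75047219 on the minus strand (ATP5PD) and chrX:77899218-77899517 on the plus strand (COX7B). The window of COX5A at chr15:74938024-74938323 on the minus strand, with none of the 4 words, is printed for contrast.
NDUFV3: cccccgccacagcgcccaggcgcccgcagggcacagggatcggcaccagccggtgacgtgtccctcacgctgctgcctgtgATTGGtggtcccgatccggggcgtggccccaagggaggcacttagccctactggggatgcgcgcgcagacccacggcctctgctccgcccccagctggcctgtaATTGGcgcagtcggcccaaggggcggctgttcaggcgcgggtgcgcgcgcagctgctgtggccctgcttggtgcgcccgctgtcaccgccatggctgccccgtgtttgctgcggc
NDUFS8: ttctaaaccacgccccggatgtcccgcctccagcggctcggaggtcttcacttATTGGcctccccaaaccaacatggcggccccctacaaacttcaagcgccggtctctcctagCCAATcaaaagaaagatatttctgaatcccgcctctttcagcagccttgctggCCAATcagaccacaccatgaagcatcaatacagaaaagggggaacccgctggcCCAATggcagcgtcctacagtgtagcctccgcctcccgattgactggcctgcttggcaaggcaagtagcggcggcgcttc
ATP5MC1: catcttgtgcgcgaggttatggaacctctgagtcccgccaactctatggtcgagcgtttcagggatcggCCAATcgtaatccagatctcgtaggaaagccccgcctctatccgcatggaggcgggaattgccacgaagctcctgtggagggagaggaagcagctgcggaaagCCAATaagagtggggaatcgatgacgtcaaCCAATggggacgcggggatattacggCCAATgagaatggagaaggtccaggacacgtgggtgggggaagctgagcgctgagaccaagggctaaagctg
ATP5PD: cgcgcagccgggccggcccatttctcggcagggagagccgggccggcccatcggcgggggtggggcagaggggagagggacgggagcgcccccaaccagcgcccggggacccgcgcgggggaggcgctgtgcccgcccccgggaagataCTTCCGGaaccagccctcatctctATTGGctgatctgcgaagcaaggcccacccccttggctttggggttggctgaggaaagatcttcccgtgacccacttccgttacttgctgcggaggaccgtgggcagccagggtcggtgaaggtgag
COX7B: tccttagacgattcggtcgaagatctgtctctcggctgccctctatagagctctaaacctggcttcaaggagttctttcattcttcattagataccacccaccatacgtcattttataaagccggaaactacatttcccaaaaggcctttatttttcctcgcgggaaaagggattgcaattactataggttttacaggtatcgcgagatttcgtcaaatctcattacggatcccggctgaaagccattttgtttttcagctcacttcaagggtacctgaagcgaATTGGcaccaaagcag
COX5A: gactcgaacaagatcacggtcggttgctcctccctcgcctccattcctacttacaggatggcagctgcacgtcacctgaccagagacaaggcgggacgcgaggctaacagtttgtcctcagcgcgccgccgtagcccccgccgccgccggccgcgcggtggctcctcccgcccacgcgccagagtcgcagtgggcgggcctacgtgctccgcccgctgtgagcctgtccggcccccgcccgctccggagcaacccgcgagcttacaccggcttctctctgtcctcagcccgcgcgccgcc
NDUFS8 and ATP5MC1 held 4 matches to CCAAT each, NDUFV3 2 and ATP5PD and COX7B 1 each. The match in COX7B lies after the start. COX5A, with a log2 fold change of 0.25 as for NDUFS8, held none.

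Genes that work around the respiratory chain were grouped into 7 lists, to be read against the 7.37% of all genes that rose and the 7.48% that fell with siCDO1A, and 2.27% and 2.5% with siCDO1C. With siCDO1A, of the complex subunits and related genes outside the naming rule 3 of 7 rose and 0 fell. HIGD2A, which acts at complex IV, was at 0.37 ± 0.08 (SE, adjusted p = 0.00298). The electron carrier cytochrome c, CYCS, which is not a subunit of a complex, was at 0.20 ± 0.053 (adjusted p = 0.0141). The complex III subunit cytochrome c1, CYC1, was at 0.22 ± 0.065 (adjusted p = 0.0267). Of the assembly factors 2 of 44 rose, a smaller share than of all genes. These were SURF1 of complex IV, by 0.33 (adjusted p = 0.00712), and SDHAF1 of complex II, by 0.40 (adjusted p = 0.0352). The SDHAF1 call was lost in 9 of 16 alternatives, among them DESeq2 and removal of the length trend, and that of SURF1 in 1. Of the genes for mitochondrial DNA and RNA 7 of 33 rose and 0 fell, among them LRPPRC, which stabilises mitochondrial mRNA, by 0.21 ± 0.051 (adjusted p = 0.00764), MTERF3 by 0.39, TRMT10C of mitochondrial tRNA processing by 0.32 and PTCD3 by 0.27. Of the mitochondrial ribosomal proteins 12 of 82 rose and 0 fell, with MRPS6 at 0.41, DAP3 at 0.29 and MRPS5 at 0.32. PTCD3 belongs to this list too and is counted in both. With the replicate block 1 of 7, 2 of 44, 2 of 33 and 4 of 82 genes of these 4 lists rose, where 4.19% of all genes rose. The calls of CYCS (adjusted p = 0.0867), CYC1 (0.0967), LRPPRC (0.0573) and TRMT10C (0.052) were lost. With siCDO1C, 0 genes of these 4 lists passed in either direction in edgeR or DESeq2, and 2, 1, 7 and 15 were at an unadjusted p under 0.05 (18.6% of all genes), respectively. Once the length trend was removed, 1, 0, 2 and 4 rose with siCDO1C (3.95% of all genes).

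The tricarboxylic acid cycle supplies NADH and succinate to the chain. Of 19 genes of pyruvate dehydrogenase and the cycle 7 rose with siCDO1A and 0 fell. CS, citrate synthase, went from 285 ± 9.65 to 374 ± 12.6 CPM (log2 fold change 0.39 ± 0.052, adjusted p = 2.69e-05), IDH3A from 46.4 ± 2.00 to 64.3 ± 1.74 CPM (0.47 ± 0.071, adjusted p = 0.000103) and SUCLG1 from 52.6 ± 1.94 to 72.3 ± 2.10 CPM (0.46 ± 0.068, adjusted p = 9.09e-05). FH, fumarase, rose by 0.26 ± 0.063. With the replicate block 3 of the 19 rose (4.19% of all genes), and FH was lost (adjusted p = 0.0531). With siCDO1C 2 of the 19 passed, SUCLG1 at 0.40 ± 0.079 (adjusted p = 0.00895) and IDH3A at 0.32 ± 0.083 (adjusted p = 0.041, or 0.0698 with the replicate block). Of 18 genes of electron entry and ubiquinone synthesis 3 rose with siCDO1A and 1 with siCDO1C. COQ4, needed for ubiquinone synthesis, rose with both, by 0.52 ± 0.076 (adjusted p = 6.72e-05) and 0.41 ± 0.083 (adjusted p = 0.00932), and PDSS1 and COQ9 rose with siCDO1A by 0.50 and 0.27, the latter lost with the block (adjusted p = 0.1).

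Of 10 regulators of mitochondrial biogenesis tested, 3 rose and 1 fell with siCDO1A (7.37% and 7.48% of all genes), and 0 rose and 1 fell with siCDO1C (2.27% and 2.5%). PPARGC1B, a coactivator of oxidative genes, rose by 0.48 ± 0.11 (adjusted p = 0.00696), its partner ESRRA by 0.24 ± 0.064 (adjusted p = 0.016, or 0.0662 with the replicate block) and PERM1 by 0.91 ± 0.27 at a level of 1.57 to 3.02 CPM in the group means (adjusted p = 0.0251). The PERM1 call was lost without siCDO1A replicate 1 or 2 or siCtrl replicate 1 or 2 (adjusted p = 0.0802 to 0.111), and DESeq2 gave no adjusted p for this gene. ESRRG, a related orphan receptor, went from 10.6 ± 0.925 CPM in siCtrl to 5.94 ± 0.666 with siCDO1A and 5.36 ± 0.623 with siCDO1C. It fell under both siRNAs, at -0.83 ± 0.14 log2 units for siCDO1A (adjusted p = 0.000497) and -0.99 ± 0.15 for siCDO1C (adjusted p = 0.00143), and passed in every alternative tried, the highest adjusted p being 0.00456 and 0.0154.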

How the data were processed

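Poly(A)-selected, strand-specific libraries of 9 VCaP cultures were sequenced as paired reads of 150 bases. Per the labels and the study's methods, reads passed CASAVA, were aligned with HISAT2 version 2.0.5 to hg38 and were counted per gene with featureCounts. The values are raw counts as deposited by the authors. The table's other columns, the authors' gene length and coordinates, were used for CPM per kb and positions. A total of 3 columns that match no labelled sample were used in no step.

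Genes were filtered with filterByExpr of edgeR (minimum count 10), which left 15555. Library sizes were scaled by TMM, and each pair of groups (6 libraries) was tested with edgeR's quasi-likelihood test (R 4.3.3, edgeR 4.0.16) with Benjamini-Hochberg adjustment over all genes tested, at 0.05, after the steps had been tested on simulated data. Counts of 12061295 to 16073698 per library set the counting precision, and intervals and floors cover counting error or the spread between libraries only. Alternatives were DESeq2 1.42.0, RLE size factors, other filters, scaling without mitochondrial genes, removal of a gene length trend (loess-type offset, span 0.3) alone, with GC content or with a block, 1 fit of all 9 libraries, a threshold of 0.01 and leaving out each library.

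Replicate numbers are the labels' batch numbers, so that the pairing comes from the labels. Deviations of same-numbered libraries from their group means were correlated over 11337 genes. For replicates 1, 2 and 3 the values were -0.198, -0.0884 and -0.37 between siCtrl and siCDO1A. They were 0.0513, -0.00845 and -0.272 between siCtrl and siCDO1C, and -0.131, 0.124 and 0.372 between siCDO1A and siCDO1C. Same-numbered libraries of siCtrl and siCDO1A thus showed no positive correlation.

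The members and lists were chosen with earlier results of these data known. Named were the 13 mitochondrial genes, in each comparison up to 12 nuclear genes per direction of lowest adjusted p at 0.05 and the extremes of fold change among genes of at least 10 CPM, the highest gene per kb of each complex, isoform families, complex II, CDO1 and up to 4 genes per direction of each of 7 lists.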

Additional observations from a re-analysis of the deposited data

Results flagged for a closer look

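One gene of the lists around the respiratory chain differed between the siRNAs when they were compared directly. PC, pyruvate carboxylase, which feeds the tricarboxylic acid cycle with oxaloacetate, was at 114 ± 3.98 CPM in siCtrl, 129 ± 6.44 CPM with siCDO1A and 96.6 ± 5.11 CPM with siCDO1C (mean ± SD, n = 3). The log2 difference, siCDO1C minus siCDO1A, was -0.42 ± 0.083 (SE, edgeR adjusted p = 0.0288), and the adjusted p over the alternatives ran from 0.000772 to 0.304. The call was lost when any 1 library other than siCDO1C replicate 2 was left out. No outlier test was run on groups of 3 libraries.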

How the results depend on the processing

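Nuclear genes called with siCDO1A were higher in every setting, and no called value of a named gene changed sign. Other directions turned with 1 library. Without siCDO1C replicate 2 the nuclear median with siCDO1C went from 0.083 to -0.019 and 2 nuclear genes passed as lower, as did 1014 of all 15555 genes. The mitochondrial median with siCDO1A went from 0.042 to -0.037 without siCtrl replicate 1, and the log2 ratio of mitochondrial to nuclear genes with siCDO1C ran from -0.14 to 0.027 around -0.066. Leaving out 1 library at a time gave 7 to 37 nuclear genes with siCDO1A, 0 to 5 with siCDO1C and 0 to 2 between the siRNAs. It gave 0 to 1 mitochondrial genes with either siRNA, a median log2 fold change of the mitochondrial genes with siCDO1C of -0.074 to 0.075, and over all genes 1292 to 3454 (main count 2309), 263 to 2068 (742) and 18 to 447 (69) in the order siCDO1A, siCDO1C and siCDO1C against siCDO1A.

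The replicate block gave 9 nuclear and 0 mitochondrial genes with siCDO1A, 2 nuclear with siCDO1C, and over all genes 1358 with siCDO1A and 121 between the siRNAs. It changed no other call of nuclear or mitochondrial counts. One fit of all 9 libraries gave 5 nuclear and 0 mitochondrial genes with siCDO1A and 4 and 1 with siCDO1C, and over all genes 1369 with siCDO1A and 128 between the siRNAs. With the length trend removed, mitochondrial genes numbered 0 with siCDO1A and 1 with siCDO1C, nuclear genes with siCDO1C 4, and all genes 1248 with siCDO1C and 145 between the siRNAs. With the length trend removed and the block, nuclear genes numbered 10 and 5, mitochondrial genes 0 and 1, and all genes 1303 with siCDO1C and 256 between the siRNAs. With length and GC trends removed, siCDO1A gave 29 nuclear genes, all higher and 17 of them among the main 21, and in all 3281 genes. In the same setting siCDO1C gave 3 nuclear, 1 mitochondrial and in all 1442 genes, and 181 passed between the siRNAs. DESeq2 gave 3 nuclear and 1 mitochondrial gene with siCDO1C and 104 genes between the siRNAs. RLE size factors, or at least 10 counts in every library, gave 1 mitochondrial gene with siCDO1C. Without a filter, 2 mitochondrial genes passed with siCDO1A, 5 nuclear and 1 mitochondrial with siCDO1C, and 147 genes between the siRNAs. At an adjusted p of 0.01, 9 nuclear and 0 mitochondrial genes passed with siCDO1A, 0 nuclear with siCDO1C, and over all genes 1107, 282 and 24. The causes were not tested.

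With 3 libraries per group, changes of about the size seen here, 1.12 to 1.39 times, were near what the replicate spread lets pass, and a gene that did not pass is not shown to be level. Genes with few counts, such as NDUFV2 and NDUFA4L2, have wide intervals.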

Other observations

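Values outside the comparisons concern other transcripts of the mitochondrial genome. MT-RNR2, the large ribosomal RNA, was at 2381 to 2958 CPM in siCtrl, 2233 to 2657 CPM with siCDO1A and 2282 to 2429 CPM with siCDO1C, and MT-RNR1, the small one, at 265 to 542 CPM, 173 to 357 CPM and 238 to 392 CPM. Both overlapped between groups. Nuclear copies of mitochondrial genes were also counted. On chromosome 1, MTATP6P1 had a mean of 164 CPM over the 9 libraries, MTND2P28 of 117 CPM and MTCO1P12 of 21.4 CPM, against 2511 CPM for MT-ATP6, 2086 CPM for MT-ND2 and 8371 CPM for MT-CO1. None of these 3 copies passed in a comparison, with log2 fold changes of 0.17, 0.062 and 0.15 with siCDO1A and 0.18, 0.089 and -0.075 with siCDO1C. Reads of the near-identical copies and of the mitochondrial genes could have been exchanged in counting, and to what extent was not tested.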
